A study of Mus musculus with 2 samples.

Results

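The 36 genes described here encode the collagens, laminins and other proteins of basement membranes and of the looser matrix around vessels, with some of their partners. They comprise 12 collagen chains, 6 laminin chains, the linkers Nid1, Nid2, Hspg2 and Agrn, 10 further matrix proteins, the protease inhibitors Timp2 and Timp3, Spock2 and the receptor chain Itgb1. Members were chosen by gene symbol, and all 36 were found among the 28692 genes of the count tables. They were measured in islets of the mouse pancreas by droplet single-cell RNA sequencing, which tags each captured RNA molecule near its 3′ end with a barcode of its droplet and a unique molecular identifier (UMI). Counts were therefore not divided by transcript length, and an order between genes can also reflect how well each is captured. The series concerns BAF60C, a chromatin-remodelling subunit encoded by Smarcd3, in type 2 diabetes. It has 2 libraries of islet cells, from flox/flox mice and from mice labelled BcBKO, for beta-cell-specific ablation, which the design text ties to Pdx1-cre. Pdx1 is active in the embryonic pancreas and in adult beta cells, so Cre driven by it is not limited to mature beta cells. Each library drew on the pooled islets of 3 or more mice, dispersed with TrypLE, a trypsin substitute. With 1 library per group there is no replicate and no test between groups. All intervals are at 95% and take in the error of counting alone.

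A basement membrane is a thin sheet of matrix at the base of epithelia and around vessels. Laminin trimers of an alpha, a beta and a gamma chain polymerise at the cell surface, and type IV collagen forms a second network that nidogens and the heparan sulfate proteoglycan perlecan, encoded by Hspg2, link to the first. Fibrillar collagens of types I, III and V give the interstitial matrix its tensile strength, and small proteoglycans such as decorin regulate their fibrils. In mouse islets the endocrine cells are known to lack a basement membrane of their own and to contact that of the capillaries, largely through integrins with a beta-1 chain. Pericytes and smooth muscle cells, together called mural cells, share the capillary basement membrane with the endothelium.

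After removal of barcodes with fewer than 500 genes, fewer than 1000 UMIs or over 20% mitochondrial UMIs, 7568 and 8504 barcodes remained in the flox/flox library and the library labelled BcBKO. Their median depth was 12163 and 12695.5 UMIs, with 23 barcodes in both libraries before and 14 after this step. The UMIs of the 36 genes were 257354 and 195222. Smarcd3 was not lower in beta barcodes of the library labelled BcBKO, at 0.374 and 0.610 CPM (UMIs of a gene per 1000000 UMIs of the class), a ratio of 1.63 (1.11 to 2.42), and the labels do not say whether the 3′ tag lies in the deleted part. This direction goes against the genotype label, and the text therefore speaks of the library labelled BcBKO. Cell classes were gated on genes that are not members, with 2750 and 3058 barcodes for beta, 415 and 714 for alpha, 281 and 371 for delta, 1763 and 1516 for endothelial, 794 and 665 for mural, 60 and 53 for duct-like and 463 and 367 for macrophage. The first number of each pair is flox/flox, here and below.

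The gates were not exclusive, and this bears on every vessel result. Of the mural barcodes, 569 and 498 also passed the endothelial gate. Those barcodes were deep, with medians of 11648 and 9533 UMIs against 4292 and 3931 for barcodes that passed the endothelial gate alone and 4357 and 3598.5 for the mural gate alone, and Scrublet called 1.23% and 1.81% of them doublets. Whether they are cells caught together was not tested. Differences between classes are therefore given for barcodes that passed 1 gate only, 1176 and 995 endothelial and 221 and 162 mural. Rgs5, Pdgfrb, Plvap and Cdh5 set the gates and are left out of the check of markers. The other 8 mural markers, such as Notch3 and Vtn, summed to 5836 and 6298 CPM in mural and 13.7 and 26.5 CPM in endothelial barcodes of 1 gate. The other 6 endothelial markers, such as Pecam1 and Kdr, summed to 13698 and 14439.8 CPM in endothelial and 638 and 703 CPM in mural barcodes.

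**Figure D1:**
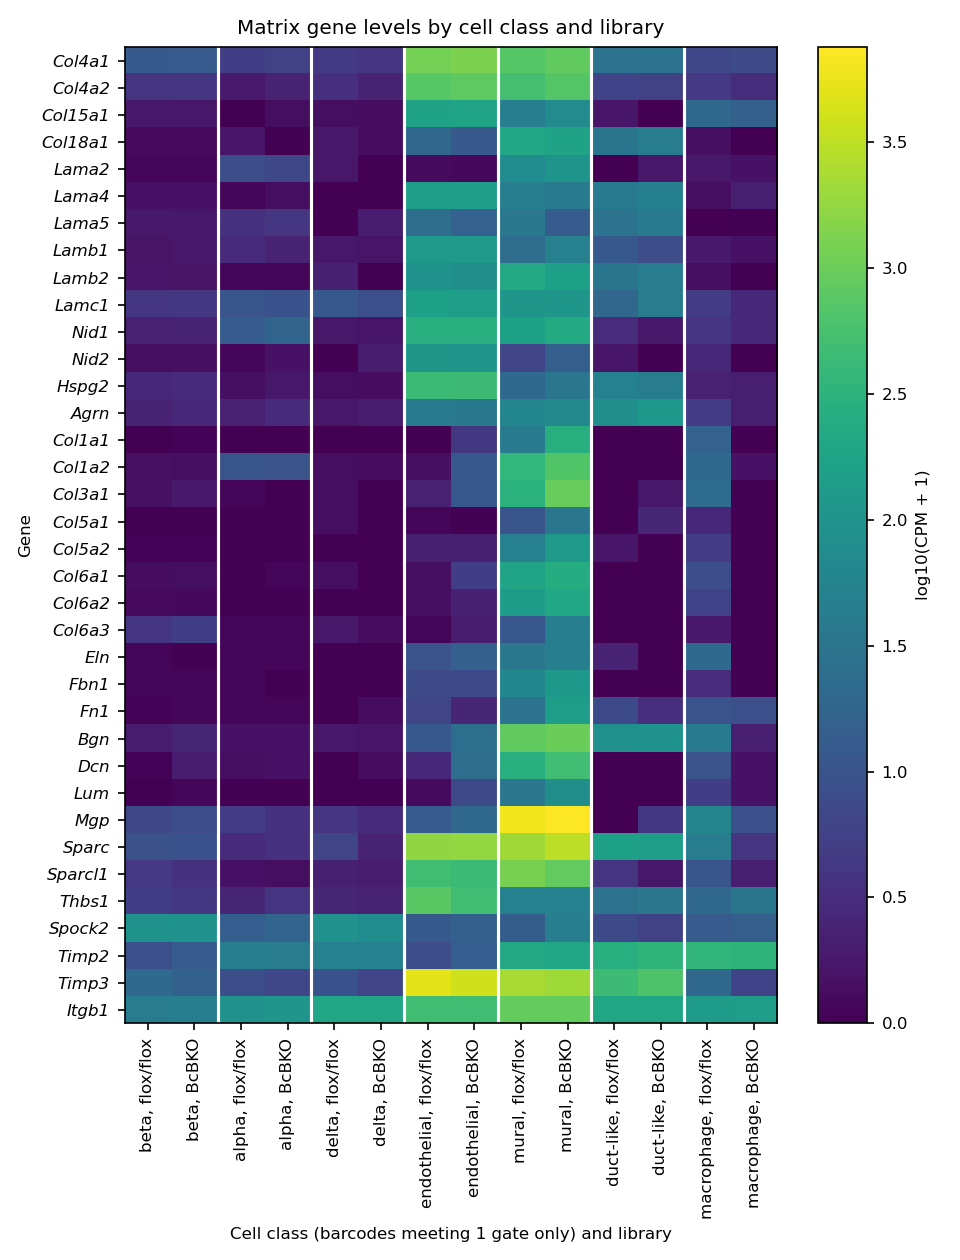
Level of each of the 36 genes, as log10(CPM + 1), in barcodes that passed 1 gate only, with a column for each class and library and the genes ordered by role. The bright columns are endothelial and mural barcodes; Spock2 is the only row at a higher level in beta and delta than in vessel barcodes in both libraries.

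Vessel cells held most of the RNA of these genes. Barcodes that passed the endothelial gate held 74.9% and 67.8% of the members' UMIs in kept barcodes, and beta barcodes, which were more numerous, 10.2% and 13.6%. Over all kept barcodes the sum of the 36 genes was 1557 and 1110.3 CPM, while within the endothelial class it was 14107 and 12753 CPM (ratio 0.904, 0.898 to 0.910) and within the mural class 16316 and 15519 CPM (0.951, 0.943 to 0.959). Endothelial and mural barcodes that passed the gate of 1 class only had 12211 and 11035 CPM and 17808 and 21934 CPM summed over the 36 genes, against 219 and 228 CPM in beta, 223 and 232 CPM in alpha, 382 and 347 CPM in delta, 1539 and 1868 CPM in duct-like and 857 and 577 CPM in macrophage barcodes. In both libraries the level was highest in mural barcodes for 21 of the 36 genes (against 16.1% of all genes that reached 20 CPM) and in endothelial barcodes for 11 (against 16%). Spock2 was highest in beta barcodes (against 0.843% of genes) and Agrn in duct-like barcodes (against 21.2%). For Lama5 and Timp2 the highest class differed between the libraries. With barcodes counted in every class whose gate they passed, 18 genes were highest in mural (against 13.4%) and 7 in endothelial barcodes (against 13.3%), of 32 genes that reached 20 CPM. Below that minimum were Col6a3, Col5a1, Eln and Lum.

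The core genes of the capillary basement membrane were expressed in both vessel classes. Col4a1 and Col4a2 encode the chains of the widespread type IV collagen. Col4a1 was 1165 and 1283 CPM in endothelial and 717 and 855 CPM in mural barcodes, so the endothelial level was 1.63-fold (1.51 to 1.75) and 1.501-fold (1.37 to 1.64) that of mural barcodes. Col4a2 was 749 and 812 CPM in endothelial and 525 and 698 CPM in mural barcodes. The vessel classes thus differed by less than 2-fold for both chains, in the same direction in each library. Lamc1, the gamma-1 chain found in most laminins, was 156 and 145 CPM in endothelial and 110.2 and 113 CPM in mural barcodes, and Nid1, which joins laminin to type IV collagen, was 277 and 283 CPM in endothelial and 158 and 233 CPM in mural barcodes.

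The other laminin chains divided between the vessel classes. Lama4, the alpha chain typical of endothelial basement membranes, was 142 and 141 CPM in endothelial barcodes and 45.4 and 40.7 CPM in mural barcodes, 3.12-fold (2.34 to 4.25) and 3.47-fold (2.35 to 5.35) higher in the former. Lamb1 was also higher in endothelial barcodes, at 122 and 126 CPM against 23.1 and 48.5 CPM. Lamb2, the alternative beta chain, was the other way round, at 94.1 and 84.0 CPM in endothelial and 217 and 152 CPM in mural barcodes, 2.30-fold (1.97 to 2.68) and 1.81-fold (1.43 to 2.26) higher in mural ones. Lama2, the alpha chain known from muscle and peripheral nerve, was nearly absent from endothelial barcodes, with 2 and 1 UMIs, and stood at 75.0 and 102 CPM in mural barcodes from 81 and 65 UMIs. Lama5, which endothelium and many epithelia make, was 23.3 and 15.7 CPM in endothelial, 35.2 and 12.5 CPM in mural and 28.6 and 38.6 CPM in duct-like barcodes.

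Of the 36 genes, 3 were at least 4-fold higher in endothelial than in mural barcodes in both libraries, a share near the 6.51% of all genes at 20 CPM or more. Hspg2 was 435 and 455 CPM in endothelial and 20.4 and 32.9 CPM in mural barcodes, 21.3-fold (14.1 to 34.1) and 13.8-fold (9.04 to 22.4) higher in the former. Nid2, the second nidogen, was 112 and 108 CPM against 5.55 and 14.1 CPM, where the mural values rest on 6 and 9 UMIs. Thbs1, which encodes thrombospondin-1, an inhibitor of angiogenesis, was 773 and 495 CPM against 49.99 and 51.7 CPM. The 6 endothelial markers outside the gates summed to 638 and 703 CPM in these mural barcodes. Their part in the mural levels of the 3 genes was not tested. Nid1 and Nid2 therefore differed in their distribution: Nid1 was within 2-fold in both vessel classes, and Nid2 was 20.1-fold (9.18 to 54.9) and 7.64-fold (3.996 to 16.8) higher in endothelial barcodes. Timp3, an inhibitor of metalloproteases that binds to matrix, had the highest level of the 36 genes in endothelial barcodes, 5191 and 4024 CPM, and was 2344 and 2096 CPM in mural barcodes. Sparc, a collagen-binding matricellular protein, was 1700.2 and 1755 CPM in endothelial and 2128 and 3115 CPM in mural barcodes, and its relative Sparcl1 was 491 and 435 CPM in endothelial and 1199.9 and 891 CPM in mural barcodes.

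In mural barcodes 17 of the 36 genes were at least 4-fold higher than in endothelial barcodes in both libraries, against 8.52% of all genes. All 5 chains of the fibrillar collagens of types I, III and V were among them, as were the 3 chains of type VI collagen, a beaded filament around cells. Without the barcode with the most fibrillar collagen UMIs of each set and library, an alternative chosen after the data were seen, 16 genes were so. The largest level was that of Mgp, matrix Gla protein, an inhibitor of calcification, at 6334 and 7559 CPM in mural and 11.8 and 19.8 CPM in endothelial barcodes. UMIs of Mgp were found in 97.7% and 92.0% of mural barcodes. Col1a2 was 364 and 673 CPM in mural and 0.466 and 10.6 CPM in endothelial barcodes, and Col3a1 was 301 and 963 CPM and 1.24 and 10.8 CPM. Col1a1 was 37.0 and 276 CPM in mural barcodes. It had no UMI in endothelial barcodes of the flox/flox library, where the mural level was at least 79.5-fold higher against a floor of 3 counts over that set, and 3.26 CPM in those of the library labelled BcBKO. The single barcode with the most fibrillar collagen held 14 of the 16 Col1a1 UMIs there, 46 of 52 of Col1a2 and 45 of 53 of Col3a1, so the BcBKO endothelial levels of these collagens rest on it. In mural barcodes of that library 1 barcode held 128 of the 176 Col1a1 UMIs, 202 of 430 of Col1a2 and 225 of 615 of Col3a1. Without the richest barcode of each library the mural levels were 27.9 and 76.4 CPM for Col1a1, 363 and 363 CPM for Col1a2 and 285 and 621 CPM for Col3a1.

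Among the other mural genes, Bgn, the small proteoglycan biglycan, was 843 and 1030.0 CPM against 10.7 and 24.5 CPM in endothelial barcodes. Col6a1 and Col6a2 were 184 and 247 CPM and 133 and 211 CPM in mural barcodes, against at most 4.28 CPM in endothelial ones. Col18a1 and Col15a1 encode the multiplexin collagens of basement membranes and were opposite in distribution. Col18a1, the source of endostatin, was 204 and 171 CPM in mural and 18.3 and 11.2 CPM in endothelial barcodes, 11.1-fold (8.84 to 14.02) and 15.2-fold (10.9 to 21.4) higher in the former. Col15a1 was 44.4 and 73.6 CPM in mural and 173 and 186 CPM in endothelial barcodes, 3.90-fold (2.92 to 5.32) and 2.53-fold (1.88 to 3.46) higher in the latter. Elastic fibre genes were at low levels: Fbn1, fibrillin-1, was 62.0 and 116 CPM and Eln, elastin, 35.2 and 43.8 CPM in mural barcodes.

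**Figure D2:**
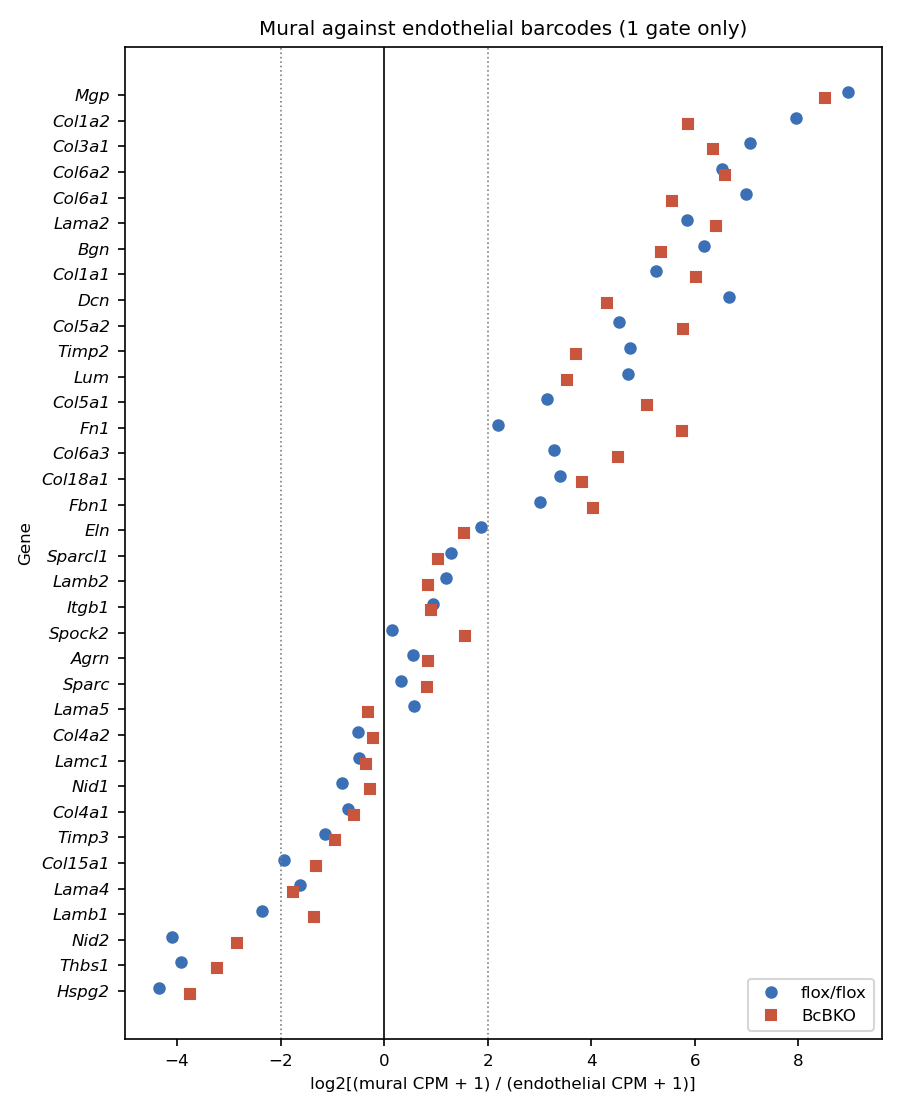
Log2 ratio of mural to endothelial levels (CPM + 1) for the 36 genes in barcodes that passed 1 gate only, with circles for flox/flox and squares for the library labelled BcBKO. Dotted lines mark 4-fold; 17 genes lie beyond the right line and 3 beyond the left line in both libraries.

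The regions before the RefSeq starts of 4 genes are shown because their levels separate the classes: Col15a1, highest in endothelial barcodes, Col3a1 and Lama2, highest in mural barcodes, and Col6a3, which also had UMIs in beta barcodes. Each is 250 bases that end at the base before the start, 5′ to 3′ in gene orientation, from RefSeq on GRCm38.p6, and none overlaps an exon of the GENCODE M21 annotation, in which the RefSeq start of Lama2 lies inside the gene. Capitals mark a TATAAA motif.
Col15a1, GRCm38.p6 chr4:47207762-47208011, plus strand: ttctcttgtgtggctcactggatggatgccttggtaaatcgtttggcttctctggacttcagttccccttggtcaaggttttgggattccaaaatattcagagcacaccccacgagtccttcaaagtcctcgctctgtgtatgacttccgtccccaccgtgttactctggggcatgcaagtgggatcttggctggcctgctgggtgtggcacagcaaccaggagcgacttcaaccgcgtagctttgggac
Col3a1, GRCm38.p6 chr1:45311288-45311537, plus strand: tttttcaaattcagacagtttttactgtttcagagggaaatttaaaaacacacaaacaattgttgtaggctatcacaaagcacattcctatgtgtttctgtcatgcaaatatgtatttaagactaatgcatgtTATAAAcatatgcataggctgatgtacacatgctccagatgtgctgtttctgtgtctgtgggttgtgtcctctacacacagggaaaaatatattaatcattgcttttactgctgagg
Lama2, GRCm38.p6 chr10:27616943-27617192, minus strand: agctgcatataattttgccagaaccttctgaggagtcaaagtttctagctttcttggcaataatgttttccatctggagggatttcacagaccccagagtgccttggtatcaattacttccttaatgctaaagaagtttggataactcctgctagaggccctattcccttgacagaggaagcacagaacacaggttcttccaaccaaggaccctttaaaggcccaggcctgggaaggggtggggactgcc
Col6a3, GRCm38.p6 chr1:90843972-90844221, minus strand: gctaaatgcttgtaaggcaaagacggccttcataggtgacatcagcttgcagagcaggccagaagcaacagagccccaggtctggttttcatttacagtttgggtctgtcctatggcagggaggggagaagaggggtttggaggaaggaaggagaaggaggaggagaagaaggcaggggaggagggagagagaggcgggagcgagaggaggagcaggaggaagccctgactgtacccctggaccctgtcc
RefSeq windows were given for 24 of the 36 genes. The letters TATAAA on either strand were in the window of 1 of them, Col3a1, where the motif begins 117 bases before the start, and in 12.4% of all 32851 windows of that length. CCAAT was in 29.2% of the 24 windows and 33.8% of all, and GGGCGG in 62.5% and 32.7%. Of the 4 windows shown, only that of Col3a1 held any of these motifs. The GC content was 53.6% for Col15a1, 35.2% for Col3a1, 47.2% for Lama2 and 57.2% for Col6a3, against a median of 52.4% over all windows. These matches are descriptions of letters and not of binding.

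The mural gate held unlike barcodes, and the fibrillar genes were uneven among them. Barcodes with at least 10 UMIs of the contractile genes Acta2, Myh11 and Tagln numbered 177 and 106 of those that passed the mural gate alone, and 44 and 56 had fewer. Col1a1 was 3.21 and 55.5 CPM in the contractile barcodes and 254 and 882 CPM in the others. Col3a1 was 223 and 535 CPM and 803 and 2141 CPM, and Dcn, decorin, 21.4 and 211 CPM and 1888 and 1235 CPM. The same barcode was among these others in the library labelled BcBKO, and without the highest barcode of each gene and library Col1a1 was 189 and 138 CPM, Col3a1 694 and 874 CPM and Dcn 1616 and 980.5 CPM in the others. Levels of Mgp differed little between these subsets, at 6365 and 7426 CPM and 6131 and 7928 CPM, and so did those of Col4a1, at 693 and 851 CPM and 865 and 865 CPM. The sum of 8 fibroblast markers was also higher in the others, at 855 and 1058 CPM in the contractile and 2169.6 and 1594 CPM in the other barcodes. Single markers did not all follow: in flox/flox, Pdgfra and Cd34 had UMIs in the contractile barcodes and none in the others. In the contractile barcodes 5 and 5 of the 8 had UMIs, and 4 and 7 in the others. Endothelial barcodes of 1 gate had a sum of 455 and 468 CPM, so the sum is not particular to fibroblasts. Of the 8, 6 and 7 had UMIs in mural barcodes of 1 gate, with Scara5 at 0 in both libraries and Pi16 at 0 in flox/flox. Whether fibroblasts take part in these levels was not tested.

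Much of the RNA of Col1a1, Dcn and Lum lay outside the gated classes. Barcodes that passed no gate held 77.0 and 38.3% of the Col1a1 UMIs of all kept barcodes, 43.4 and 57.3% of those of Dcn and 55.9 and 61.7% of those of Lum, lumican, a relative of decorin. For the other fibrillar chains the shares were 26.8 and 22.9% for Col1a2, 38.9 and 20.5% for Col3a1 and 16.1 and 16.2% for Col5a2. Col5a1, with 66 and 59 UMIs in all, had 50 and 44.1%. The same barcodes held 2.19 and 3.66% of Col4a1 and 2.32 and 3.61% of Hspg2. Of the 391 Col1a1 UMIs outside the gates in the flox/flox library, 201 were in 1 barcode and 82 in the next. Barcodes with at least 2 UMIs of Pdgfra, a defining gene of fibroblasts, numbered 2 and 11. In these few, Col3a1 was 9816 and 3889 CPM, Col1a1 4732 and 1534 CPM and Dcn 2942 and 11735 CPM, above the levels of mural barcodes. Scrublet called 1 of the 2 flox/flox barcodes a doublet and 0 of the 11 others, so the flox/flox values are not a repeat of the other library. Too few such barcodes were present to describe fibroblasts as a class.

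Endocrine cells had little RNA of most of these genes. Set against the higher of the endothelial and mural levels, the median over the 36 genes was 0.360% and 0.335% in beta barcodes, 0.157% and 0.177% in alpha and 0.184% and 0.0940% in delta barcodes. Cells that should lack most of these genes served as a reference. In lymphocyte barcodes that passed no other gate (58 and 199) the median was 0% and 0.597%, with 3 UMIs being 5.01 and 2.53 CPM there. In macrophage barcodes it was 3.30% and 0.120%, and 0.187% and 0.121% without the barcode richest in fibrillar collagen of each library. The beta median was above the macrophage median without those barcodes in both libraries, and above the lymphocyte median in flox/flox alone. The alpha and delta medians were not above either reference in both libraries. No barcode rich in fibrillar collagen was left out of the lymphocyte sets, which also hold too few UMIs to resolve medians this low. The lymphocyte comparison therefore does not decide. The 7 beta-cell markers, mostly insulin, took 699667 and 681292 CPM in beta barcodes, which lowers the CPM of every other gene there. Col4a1 in beta barcodes was 11.3 and 12.1 CPM, or 0.973% and 0.945% of its vessel level, Timp3 was 20.5 and 15.2 CPM and Sparc 8.05 and 8.56 CPM. Itgb1, the integrin beta-1 chain with which cells bind laminin and collagen, was 42.2 and 45.3 CPM in beta, 96.7 and 104 CPM in alpha and 196 and 193 CPM in delta barcodes, and its vessel levels were 480.0 and 484 CPM in endothelial and 918 and 913 CPM in mural barcodes. Timp2, a metalloprotease inhibitor, was 7.94 and 11.9 CPM in beta, 44.9 and 41.2 CPM in alpha and 50.1 and 48.7 CPM in delta barcodes, or 20.3% and 22.0% of its vessel level in alpha and 22.6% and 25.9% in delta barcodes.

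Spock2, which encodes testican-2, a secreted proteoglycan, was the member with the highest level in beta barcodes. It was 94.1 CPM (interval 92.3 to 95.8) in flox/flox and 96.4 CPM (interval 94.7 to 98.2) in the library labelled BcBKO, with UMIs in 95.1% and 93.1% of barcodes. Delta barcodes had 91.2 and 74.7 CPM and alpha barcodes 13.2 and 17.2 CPM, close to the 11.5 and 14.7 CPM of endothelial barcodes. Median depths were 38461.5 and 33171.5 UMIs in beta and 3827.5 and 3300 in lymphocyte barcodes. With every barcode thinned to 2000 UMIs, to compare shares at 1 depth, Spock2 was detected in 17.6% (interval 16.2 to 19.0) and 18.9% (interval 17.5 to 20.3) of beta barcodes. In lymphocyte barcodes it was 1.75% (interval 0.0444 to 9.39) and 7.02% (interval 3.68 to 11.9), with 1 and 28 shallower barcodes left out (0 and 0 in beta, 5 and 13 in alpha). The beta share lay above the lymphocyte share beyond counting error in both libraries, and the alpha share, 3.23% and 3.23%, did not.

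Col6a3, the third chain of type VI collagen, was the only chain of that collagen with more than 1 CPM in beta barcodes. It was 2.96 CPM (interval 2.66 to 3.29) and 4.25 CPM (interval 3.89 to 4.64) there, from 356 and 495 UMIs, with no barcode above 5 UMIs. Its partners Col6a1 and Col6a2 were 0.333 and 0.404 CPM and 0.241 and 0.215 CPM. Alpha barcodes had 0.186 and 0.132 CPM of Col6a3, from 1 UMI in each library. Beta barcodes held 65.8 and 69.6% of all Col6a3 UMIs of kept barcodes, although the level in mural barcodes, 10.2 and 45.4 CPM, was higher. Thinned to 2000 UMIs, Col6a3 was found in 0.255% (interval 0.102 to 0.524) and 0.687% (interval 0.426 to 1.05) of beta barcodes and in 0 of 57 and 0 of 171 lymphocyte barcodes, which allows shares of up to 6.27% and 2.13%, so at that depth the beta share could not be told from background.

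Col1a2, Lama2 and Nid1 had higher CPM in alpha than in beta or delta barcodes, at low levels. Col1a2 was 9.28 CPM (interval 6.89 to 12.2) and 8.99 CPM (interval 6.98 to 11.4), from 50 and 68 UMIs, against 0.483 and 0.404 CPM in beta and 0.391 and 0.338 CPM in delta barcodes. Col3a1, the fibrillar chain of type III collagen, had 1 and 0 UMIs in the same alpha barcodes. Col1a1, the other type I chain, had none, which allows up to 0.557 and 0.397 CPM. In mural barcodes Col1a2 and Col3a1 had 393 and 430 and 325 and 615 UMIs. The source of the Col1a2 UMIs in alpha barcodes was not tested. Lama2 was 7.24 and 5.95 CPM in alpha barcodes and 0.150 and 0.112 CPM in beta and 0.783 and 0 CPM in delta barcodes. Nid1 was 12.4 and 16.5 CPM in alpha, 1.25 and 1.37 CPM in beta and 0.783 and 0.676 CPM in delta barcodes. Lamc1 was 9.47 and 8.59 CPM in alpha and 10.6 and 7.77 CPM in delta barcodes, above the 3.18 and 3.28 CPM of beta barcodes. Beta-cell markers took 699667 and 681292 CPM in beta barcodes, which lowers all other genes there. Alpha-cell markers took 333908 and 307488 CPM in alpha barcodes, and delta-cell markers 177726 and 173804 CPM in delta barcodes. Their part in these gaps between classes was not tested. Thinned shares in alpha barcodes were 1.88% (interval 0.760 to 3.84) and 2.10% (interval 1.12 to 3.56) for Col1a2 and 3.23% (interval 1.68 to 5.57) and 4.52% (interval 3.02 to 6.46) for Nid1. Lymphocyte shares were 0% (interval 0 to 6.27) and 0.585% (interval 0.0148 to 3.22) for Col1a2, so that at this depth the alpha share did not exceed background beyond counting error, and 0% (interval 0 to 6.27) and 0% (interval 0 to 2.13) for Nid1, whose alpha share did so in the library labelled BcBKO alone.

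**Figure D3:**
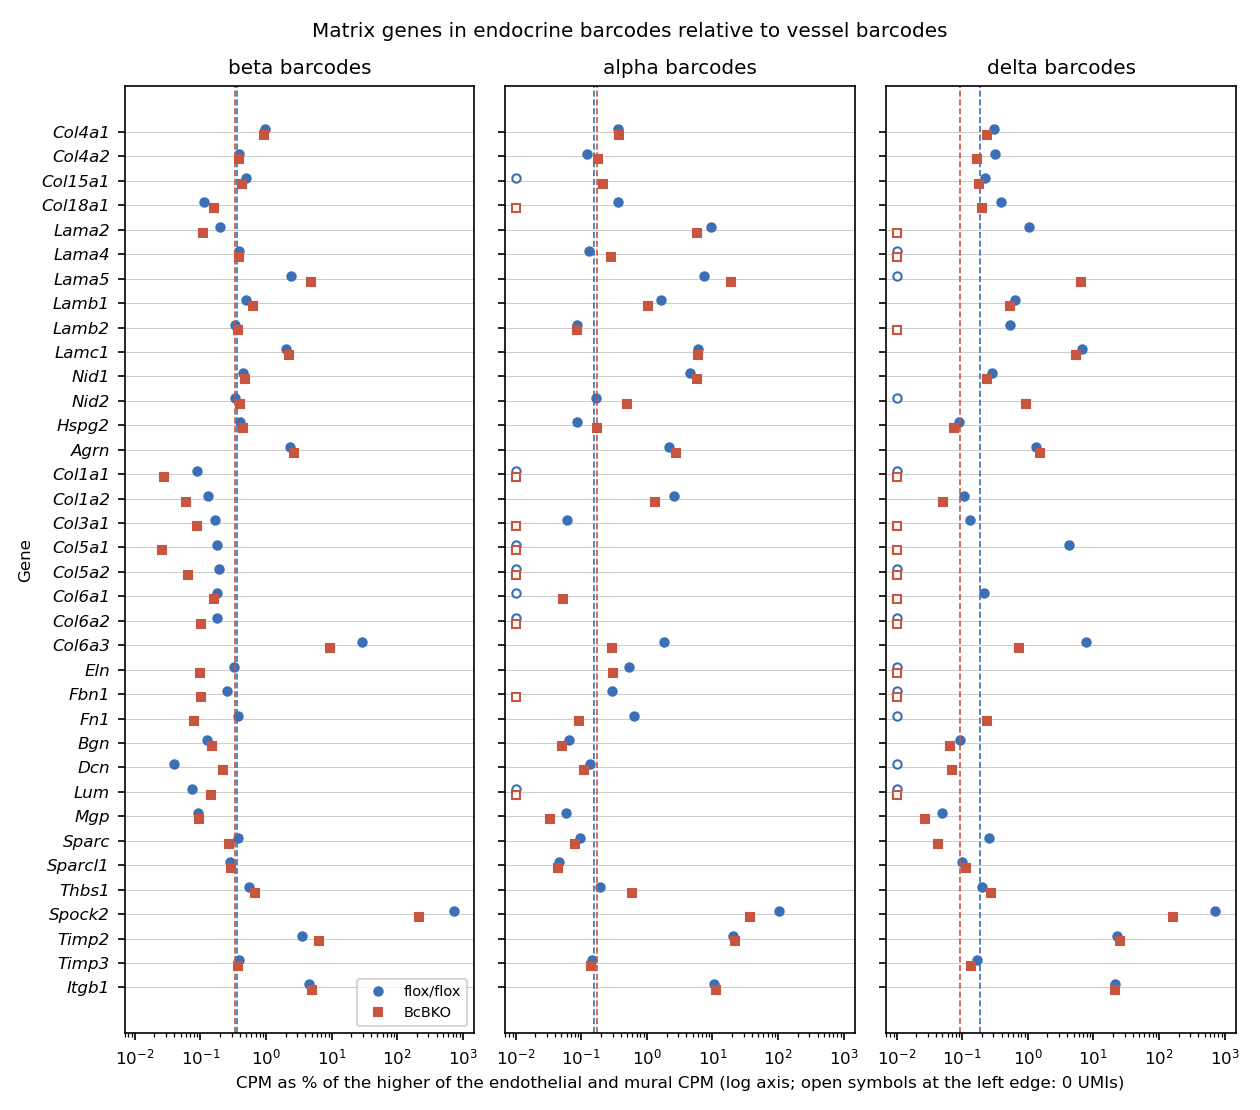
CPM of the 36 genes in beta, alpha and delta barcodes that passed 1 gate only, as a percent of the higher of the endothelial and mural CPM, on a log axis. Dashed lines are medians per library, and open symbols at the left edge have 0 UMIs. Spock2 lies far to the right in beta and delta barcodes. Col6a3 stands apart in beta barcodes of flox/flox, at 29.1% of a mural level that rests on 11 UMIs. In the library labelled BcBKO it is 9.37%, near Timp2 at 6.36%.

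Duct-like barcodes, 55 and 50 that passed 1 gate only, had RNA of several basement membrane genes. Agrn, the proteoglycan agrin, was 83.7 and 115 CPM there, its highest level, against 59.3 and 65.7 CPM in mural and 40.1 and 36.1 CPM in endothelial barcodes. Lama4 was 37.9 and 45.9 CPM and Hspg2 49.4 and 41.8 CPM in duct-like barcodes, beside 28.6 and 38.6 CPM of Lama5. Timp3 was 462 and 634 CPM, Timp2 266 and 341 CPM, Itgb1 190.4 and 193 CPM and Sparc 162 and 144 CPM. Fibrillar chains were at or near 0, with no UMI of Col1a1 or Col1a2, which allows up to 2.15 and 2.41 CPM. Macrophage barcodes had Timp2 at 355 and 329 CPM, in 78.4% and 76.4% of barcodes, and Itgb1 at 137 and 144 CPM. Fn1, fibronectin, was 8.80 and 7.84 CPM and Col15a1 19.3 and 14.6 CPM in them.

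The question of the design is whether the libraries differ, and in vessel barcodes the basement membrane genes differed little. Between the libraries a gene was counted as different if its level (CPM + 1) differed by 1.5-fold or more, over all barcodes that passed the gate of a class and among genes that reached 20 CPM in at least 1 library. In endothelial barcodes 1 of 27 members was so, against 2.04% of all genes. It was Dcn, at 18.5 and 34.7 CPM, a log2 ratio (BcBKO over flox/flox) of 0.87. Of its 360 UMIs in the library labelled BcBKO, 115 were in 1 barcode, which also had 14 Pdgfra UMIs, and without the barcode richest in fibrillar collagen of each library 0 of 27 members passed 1.5-fold (against 2% of all genes). The median log2 ratio of the 27 members was −0.04, beside −0.01 for all 6508 genes, with 13 above 0 and 14 below.

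Type IV collagen and the linkers were nearly level in endothelial barcodes. Col4a1 was 1288 and 1352 CPM, a ratio of 1.05 (1.03 to 1.07), and Col4a2 was 782 and 848 CPM, a ratio of 1.08 (1.05 to 1.12). Hspg2 was 390.3 and 402 CPM (ratio 1.03 (0.989 to 1.07)), Nid1 295 and 299 CPM (1.01 (0.966 to 1.06)) and Lama4 139.8 and 136 CPM (0.971 (0.906 to 1.04)). A few members were lower in the library labelled BcBKO over all barcodes of both vessel gates. Thbs1 was 755 and 504 CPM in endothelial barcodes, a ratio of 0.667 (0.645 to 0.690) and a log2 ratio of −0.58, just inside the 1.5-fold limit, and 659 and 470.3 CPM in mural barcodes, a ratio of 0.714 (0.681 to 0.747). In endothelial barcodes that passed 1 gate only it was 773 and 495 CPM, a log2 ratio of −0.64, past the limit, with no more than 45 and 22 UMIs in any barcode. Among those barcodes 3 of 19 members passed 1.5-fold, Thbs1, Bgn and Dcn, against 2.16% of all genes, and Bgn and Dcn were within it, or under 20 CPM, without 1 barcode per library. Timp3 was 5119 and 3965 CPM (ratio 0.775 (0.765 to 0.784)) in endothelial and 4763 and 3807 CPM (0.799 (0.786 to 0.813)) in mural barcodes. Col18a1 was 47.5 and 32.3 CPM (0.679 (0.594 to 0.776)) and 92.0 and 67.5 CPM (0.733 (0.647 to 0.829)), and Sparcl1 642 and 531 CPM (0.828 (0.801 to 0.857)) and 847 and 665 CPM (0.785 (0.754 to 0.816)). The gates share barcodes, so the classes are not independent. In mural barcodes that passed 1 gate only, Thbs1 was not lower, at 49.99 and 51.7 CPM from 54 and 33 UMIs. The 6 endothelial markers outside the gates summed to 638 and 703 CPM there, and their part in the Thbs1 level was not tested. Timp3, at 2344 and 2096 CPM, Col18a1, at 204 and 171 CPM, and Sparcl1, at 1199.9 and 891 CPM, were lower there too. Markers of acinar cells moved with the library as well: all 6 summed to 938 and 105 CPM in endothelial and 498 and 77.3 CPM in mural barcodes, and their part in these ratios was not tested.

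In mural barcodes 3 of 31 members were 1.5-fold higher in the library labelled BcBKO and 0 lower, against 2.14% of all genes in either direction and 0.728% higher. Col1a1 was 9.35 and 34.7 CPM, a ratio of 3.71 (2.84 to 4.89). Of its 204 UMIs in the library labelled BcBKO, 128 came from 1 barcode with 13 Pdgfrb, 0 Rgs5 and 1 Pdgfra UMIs. The same barcode held 51 of the 120 UMIs of Fn1, which was 7.38 and 20.4 CPM, a ratio of 2.76 (2.01 to 3.83). Dcn was 66.1 and 100.4 CPM, a ratio of 1.52 (1.35 to 1.71). Without that barcode and its flox/flox counterpart 0 of 29 members passed 1.5-fold (against 2.07% of all genes), and Dcn was at a log2 ratio of 0.47. Col1a1 and Fn1 were then under 20 CPM and so not counted, but still past 1.5-fold, at 8.15 and 12.9 CPM (log2 ratio 0.61; 66 and 76 UMIs) and 6.91 and 11.7 CPM (0.69; 56 and 69 UMIs). The median over the 31 members was 0.07, beside −0.02 for all genes. Mgp was 2309.6 and 2301 CPM, a ratio of 0.996 (0.975 to 1.02), and Sparc was 2180.4 and 2395 CPM (1.10 (1.07 to 1.12)).

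**Figure D4:**
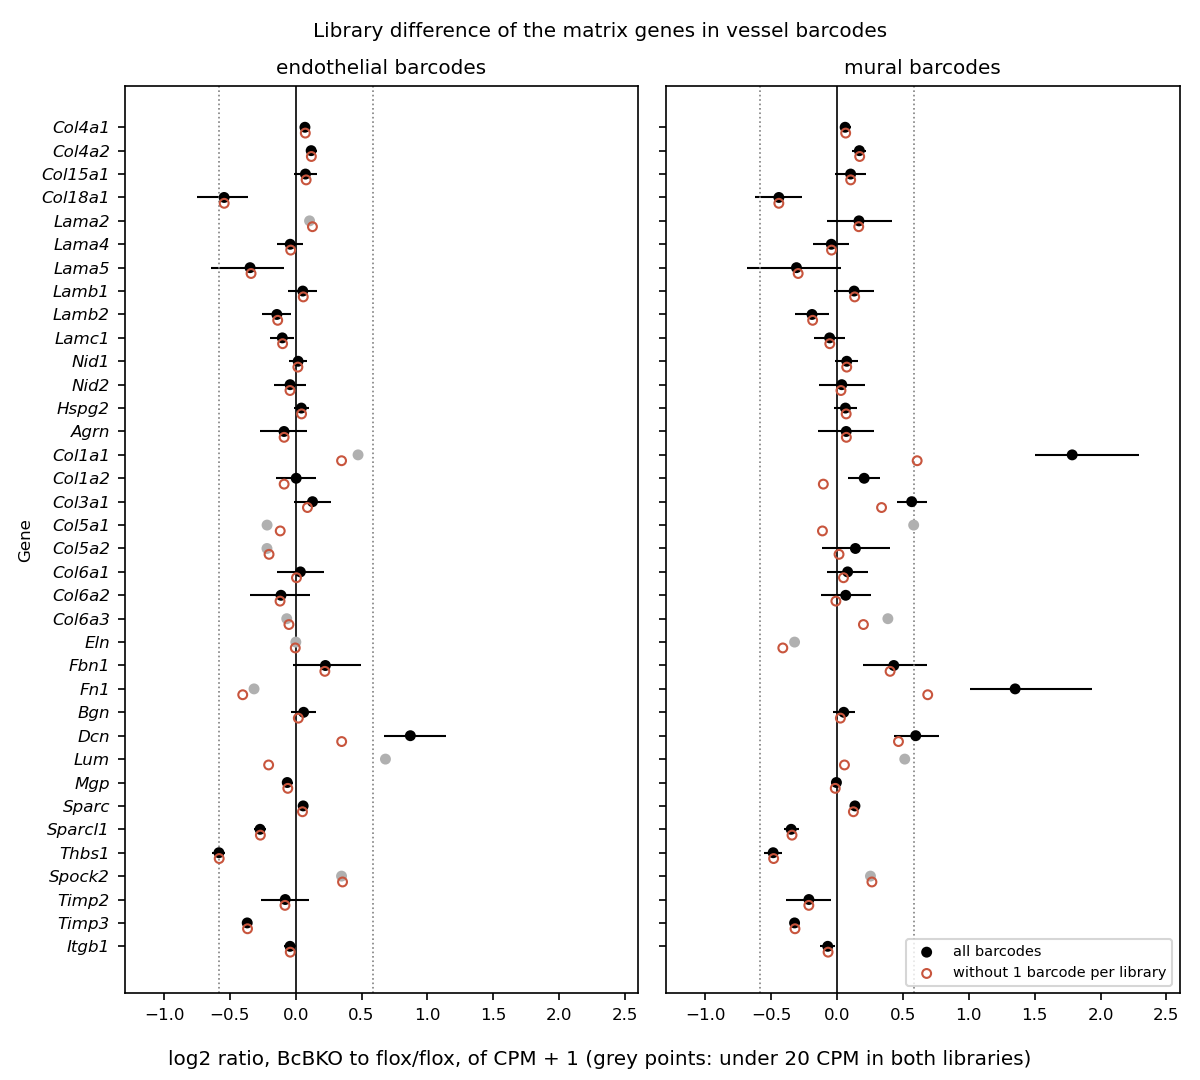
Log2 ratio, BcBKO to flox/flox, of each of the 36 genes in endothelial and mural barcodes, on CPM + 1, with filled points for all barcodes (grey under 20 CPM in both libraries), bars for 95% counting intervals of the CPM ratio, and open circles without the barcode richest in fibrillar collagen of each library. Dotted lines mark 1.5-fold; Col1a1, Fn1 and Dcn lie beyond it in mural and Dcn in endothelial barcodes, and no gene at 20 CPM or more does once 1 barcode per library is left out.

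Barcodes that passed the mural gate alone gave another picture. There 15 of 35 members were 1.5-fold higher in the library labelled BcBKO and 1, Lama5, was lower, against 17.3% of all genes in either direction and 7.79% higher. The 15 were the fibrillar chains Col1a1, Col1a2, Col3a1, Col5a1 and Col5a2, the chains Col6a2, Col6a3 and Col15a1, and Fn1, Fbn1, Dcn, Lum, Hspg2, Lamb1 and Spock2. Some of these rest on few UMIs: Hspg2 on 22 and 21, Lamb1 on 25 and 31, Spock2 on 14 and 29, Col5a1 on 10 and 21 and Col6a3 on 11 and 29. Col3a1 was 301 and 963 CPM, a ratio of 3.20 (2.79 to 3.67), and Col5a2 was 47.2 and 121 CPM (2.55 (1.77 to 3.71)). Without the barcode richest in fibrillar collagen of each library 11 of 34 members were higher (against 7.44% of all genes), without Col1a2, Col5a1, Col6a2 and Col15a1. Col3a1 was then 285 and 621 CPM and Col1a2 was 363 and 363 CPM. The mix of barcodes differed too: those with few contractile UMIs were 44 and 56 of 221 and 162, and within the contractile ones Col3a1 was 223 and 535 CPM and Dcn 21.4 and 211 CPM. Contractile markers summed to 10494 and 7274 CPM and fibroblast markers to 1032 and 1201 CPM in the mural barcodes, and their part in the result was not tested. Lama5 was 35.2 and 12.5 CPM, from 38 and 8 UMIs.

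Macrophage barcodes had the largest share of members past 1.5-fold of the 7 classes. Of 16 members at 20 CPM or more, 13 were 1.5-fold lower in the library labelled BcBKO and 0 higher, against 8.02% of all genes lower. Timp3 was 381 and 121 CPM, Sparc 180.3 and 58.8 CPM, Mgp 124 and 59.2 CPM and Col4a1 108 and 51.0 CPM. Markers of vessel cells moved the same way, with 1161 and 602 CPM for the 8 endothelial and 417 and 84.3 CPM for the 10 mural markers. In macrophage barcodes that passed 1 gate only these sums were 33.1 and 30.8 CPM and 17.6 and 6.72 CPM, Timp3 was 19.3 and 5.04 CPM and Col4a1 5.87 and 6.72 CPM. There 6 of 9 members were lower (against 5.58% of all genes) and 1, Thbs1, was higher (against 2.43%). In the flox/flox library 1 macrophage barcode held 35 of 38 Col1a1 UMIs and 48 of 52 Eln UMIs. Without it and its counterpart, 1 of 3 members passed 1.5-fold in macrophage barcodes of 1 gate only (against 7.83% of all genes): Thbs1, at 19.3 and 30.9 CPM. The summed level of the 36 genes was then 585 and 576 CPM.

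In endocrine and duct-like barcodes few members reached 20 CPM. In beta barcodes 0 of 3 passed 1.5-fold, against 1.02% of all genes. Spock2 had a ratio of 1.03 (0.999 to 1.05), Itgb1 of 1.07 (1.03 to 1.12) and Timp3 of 0.740 (0.696 to 0.787). In alpha barcodes 1 of 4 passed, against 1.31%: Sparc, at 11.5 and 23.4 CPM. In delta barcodes 2 of 6 did, against 2.34%: Sparc, at 18.1 and 32.4 CPM, and Col4a1, at 12.1 and 21.9 CPM. Vessel marker levels are given beside these: the 8 endothelial markers summed to 136 and 203 CPM in alpha and 128 and 184 CPM in delta barcodes, and the 10 mural markers to 10.5 and 40.9 CPM in alpha and 22.7 and 12.6 CPM in delta barcodes, and their part in these values was not tested. With barcodes of 1 gate only, Sparc was 2.04 and 2.51 CPM in alpha and 5.48 and 1.35 CPM in delta barcodes, Col4a1 was 3.52 and 3.04 CPM in delta barcodes, the endothelial markers summed to 33.8 and 31.3 CPM in alpha and 42.7 and 45.3 CPM in delta barcodes, and 0 of 2 alpha (against 1.25%) and 0 of 3 delta members (against 2.92%) passed. In duct-like barcodes 2 of 14 members were past 1.5-fold, against 15.5% of all genes: Lamc1 at 18.5 and 42.2 CPM and Timp3 at 443 and 669.6 CPM. Acinar markers there summed to 12139.7 and 62.5 CPM. That share of members is near the background.

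Over all barcodes of the vessel gates, few genes that process, bind or regulate matrix passed 1.5-fold between the libraries, where 2.04% of all genes did in endothelial and 2.14% in mural barcodes. Of 12 collagen-processing genes at 20 CPM or more in endothelial barcodes, such as Serpinh1, the collagen chaperone HSP47 (343 and 326 CPM), 0 passed 1.5-fold, and 0 of 13 did in mural barcodes. Among matrix receptors 0 of 14 passed in endothelial and 0 of 16 in mural barcodes. Itga6, an integrin chain that pairs with beta-1 or beta-4 to bind laminin, was 263 and 284 CPM. Of 10 proteases and inhibitors in endothelial barcodes 1 was lower, Plat, the tissue plasminogen activator, at 208 and 138 CPM (ratio 0.665 (0.624 to 0.709)). Of 13 genes of TGF-beta signalling 1 was lower, Bambi, a pseudoreceptor that dampens the pathway, at 313 and 198 CPM (0.633 (0.600 to 0.667)). Among 12 further matrix genes in mural barcodes 1 was higher, Postn, the matricellular protein periostin, at 27.3 and 44.3 CPM (1.62 (1.35 to 1.95)). The highest level among those genes was that of Igfbp7, a secreted protein of vessel basement membranes, at 5603 and 5416 CPM in endothelial barcodes (ratio 0.967 (0.956 to 0.977)). Of 4 other collagens and laminins in endothelial and 8 in mural barcodes 0 passed.

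In barcodes that passed the mural gate alone, where 17.3% of all genes passed, these lists gave more. Of 8 other collagens and laminins 5 were higher in the library labelled BcBKO, with a median log2 ratio of 0.78 beside −0.01 for all genes: Col4a4 at 75.0 and 124 CPM, Col8a1 at 51.8 and 95.5 CPM, Col5a3, Col14a1 and Lamc3. Of 20 collagen-processing genes 4 were higher and 0 lower, among them the lysyl oxidase Loxl1 at 13.9 and 34.4 CPM, and of 16 further matrix genes 4 were higher and 0 lower. Among 15 receptors 2 were higher and 3 lower, among 11 proteases and inhibitors 1 was higher and 2 were lower, and among 13 genes of TGF-beta signalling 1 was higher and 1 lower. The barcode with most fibrillar collagen is included in these counts. In barcodes that passed the endothelial gate alone, where 2.16% of all genes passed, Plat and Bambi were lower as before, Mfap2 and Tgfbr3 were higher, Ctgf was lower, and no other gene of the lists passed.

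Several members lie side by side in the genome (GRCm38, GENCODE M21), and no member shared exon sequence with another gene on its strand. Col4a1 (ENSMUSG00000031502; chromosome 8, 11198423 to 11312826, minus strand) and Col4a2 (ENSMUSG00000031503; chromosome 8, 11312805 to 11449287, plus strand) are divergent, with starts 21 bases apart, and both differed by less than 2-fold between the vessel classes. Col3a1 (ENSMUSG00000026043; chromosome 1, 45311538 to 45349706, plus strand) and Col5a2 (ENSMUSG00000026042; chromosome 1, 45374321 to 45503282, minus strand) are 24.6 kb apart and were both mural, at 301 and 963 CPM and 47.2 and 121 CPM. Col6a1 (ENSMUSG00000001119; chromosome 10, 76708792 to 76726168, minus strand) and Col6a2 (ENSMUSG00000020241; chromosome 10, 76595762 to 76623630, minus strand) are 85.2 kb apart and neither exceeded 1 CPM in beta barcodes, while Col6a3 (ENSMUSG00000048126; chromosome 1, 90765923 to 90843971, minus strand) did. Dcn (ENSMUSG00000019929; chromosome 10, 97479609 to 97518143, plus strand) and Lum (ENSMUSG00000036446; chromosome 10, 97565128 to 97572703, plus strand) are 47.0 kb apart and were both mural, at 273 and 484 CPM and 33.3 and 81.4 CPM. Spock2 (ENSMUSG00000058297; chromosome 10, 60106219 to 60135198, plus strand), Col15a1 (ENSMUSG00000028339; chromosome 4, 47208161 to 47313167, plus strand), Thbs1 (ENSMUSG00000040152; chromosome 2, 118111876 to 118127133, plus strand), Timp3 (ENSMUSG00000020044; chromosome 10, 86300372 to 86349506, plus strand) and Mgp (ENSMUSG00000030218; chromosome 6, 136872435 to 136875823, minus strand) had no other member next to them.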

How the data were processed

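Per the file headers and values, the authors deposited raw UMI counts for each gene in each barcode, with 1 matrix per library and no normalisation. Per the submitters' processing notes, Cell Ranger 3.1.0, Seurat 4.0.0 and mm10 were used, while the matrix headers name software version 6.1.2; which made the counts could not be settled, and the gene annotation is not given in the sources used here. The libraries had 9438 and 10775 barcodes with 167670996 and 178647270 UMIs, and 23 barcodes occurred in both.

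Members and gene lists were chosen with earlier results of these data known. Classes were gated as follows. Beta barcodes had Ins1 and Ins2 at 25% or more of UMIs, at least 10000 UMIs and Gcg, Sst and Ppy each under 1%. With insulin genes under 15%, alpha barcodes had Gcg at 10% or more, delta barcodes Sst at 5% or more, endothelial barcodes at least 3 UMIs of Plvap and Cdh5, mural barcodes at least 5 of Rgs5 and Pdgfrb, duct-like barcodes at least 3 of Krt19, macrophage barcodes at least 5 of C1qa and C1qb and lymphocyte barcodes at least 5 of Cd79a, Cd79b, Cd3d, Cd3e and Trac. Names rest on these genes alone. Lymphocyte barcodes were limited to those of no other gate after the data were seen. Doublets were called with Scrublet (scanpy 1.11.5, expected rate 8%) (2.25% and 2.08% of kept barcodes) and were kept.

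CPM were taken from the UMIs summed over each class. Log2 ratios used a pseudocount of 1 CPM, which understates differences of low genes. Intervals are exact Poisson for CPM, exact conditional for ratios and exact binomial (Clopper-Pearson) for shares, and a count of 0 was taken to allow 3 counts. No p-value was computed. The 4-fold comparison of mural and endothelial barcodes was chosen after the data were seen. Named in full were the 5 highest members of each class, members past 1.5-fold, neighbours in the genome and the extremes of each list. TMM factors came from edgeR 4.0.16 in R 4.3.3, with Python 3.11.15, numpy 2.4.6, scipy 1.17.1 and pandas 2.3.3. On simulated data for mural barcodes, with 6544 genes of which 200 differed by 2-fold, the true value lay within the interval for 95.4% of genes and the sign was recovered for 100% of those 200. This describes the simulated counts only. It does not measure variation between mice or the concentration of UMIs in single barcodes of the real libraries. There were 12 planned and 2 added alternatives.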

Additional observations from a re-analysis of the deposited data

Results flagged for a closer look

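Some members had ratios (BcBKO over flox/flox, CPM + 1) past 1.5-fold in opposite directions in different classes, and the difference between classes was not tested. Sparc had log2 ratios of 0.97 in alpha and 0.80 in delta barcodes and −1.60 in macrophage barcodes. Col4a1 was at 0.81 in delta and −1.07 in macrophage barcodes. Lamc1 was at 1.14 in duct-like and −1.37 in macrophage barcodes, and Timp3 at 0.60 in duct-like and −1.65 in macrophage barcodes. With barcodes that passed 1 gate only, Sparc was at 0.21 in alpha and −1.46 in delta barcodes and Col4a1 at −0.16 in delta and 0.17 in macrophage barcodes.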

How the results depend on the processing

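No paired analysis was possible because each group is 1 library, and no library could be left out. Precision is limited by UMIs of low genes and by single barcodes. As reported, 1 member in endothelial, 3 in mural and 13 in macrophage barcodes differed by 1.5-fold or more, and the summed members had log2 ratios of −0.15, −0.07 and −0.95. With barcodes that passed 1 gate only the counts were 3, 16 and 7, the median log2 ratio was 0.44 in mural and −3.51 in macrophage barcodes (reported 0.07 and −1.22), the summed ratio was 0.30 and −0.57, and 11 members in place of 7 were highest in endothelial barcodes. Without the barcode richest in fibrillar collagen of each library, the macrophage median and summed ratio in barcodes of 1 gate were 0.08 and −0.02. With barcodes of 1 gate the macrophage log2 ratios of Col4a1 and Thbs1 turned to 0.17 and 0.65. Without called doublets the summed ratio was −0.13 in endothelial, −0.054 in mural and −1.16 in macrophage barcodes, with a macrophage median of −1.92. With gate minimums times 2, 0 endothelial members passed and macrophage barcodes had a median of −0.77 and a summed ratio of −0.65. Without hormone and mitochondrial genes in the totals, the summed ratio was −0.12 in endothelial and −0.051 in mural barcodes. With TMM factors 2 endothelial members passed, the second being Thbs1. At a minimum of 50 CPM the counts were 0 endothelial, 1 mural and 7 macrophage members, and with no minimum 2 endothelial and 28 macrophage members. Among mural barcodes without a Pdgfra UMI 0 members passed, but Fn1 was still past 1.5-fold, at a log2 ratio of 0.587, and left the count by falling under 20 CPM. Of the 2 alternatives chosen after the data were seen, leaving out the barcode richest in fibrillar collagen gave 0 members in both vessel classes and a summed mural ratio of −0.086, and leaving out the highest barcode of each gene gave 0 mural members and −0.089. In both, mural Col1a1 and Fn1 left the count by falling under 20 CPM: their log2 ratios stayed past 1.5-fold, at 0.61 and 0.69 in the former and 0.61 and 0.76 in the latter. Apart from the changes that follow from fewer genes or barcodes entering, the cause was not tested. The other 86 such values stayed within their limits, and of the values of single genes 187 kept direction and side of 1.5-fold, 18 kept direction only and 2 turned.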

Other observations

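Collagens outside the 36 genes were also present in vessel barcodes. Col13a1, a transmembrane collagen, was 385 and 399 CPM in endothelial and 283 and 297 CPM in mural barcodes. Col4a4, a chain of a type IV collagen known from the kidney, was 37.7 and 37.6 CPM in endothelial and 62.0 and 65.1 CPM in mural barcodes, and 75.0 and 124 CPM in mural barcodes that passed 1 gate only. These genes were chosen after their values were seen. Dcn had 13 and 124 UMIs in beta barcodes, of which 66 and 46 in the library labelled BcBKO were in 2 barcodes.

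Among the lists of genes that process, bind or regulate matrix, the extremes of the log2 ratio (BcBKO over flox/flox, genes at 20 CPM or more) are given here by class. For collagen processing the highest and lowest were P4hb at 0.21 and Loxl2 at −0.39 in endothelial barcodes, and P4hb at 0.30 and Loxl2 at −0.30 in mural barcodes (medians −0.07 and −0.07). Among other collagens and laminins the highest and lowest were Col13a1 at 0.05 and Col4a3 at −0.02 in endothelial barcodes, and Col27a1 at 0.32 and Col4a5 at −0.51 in mural barcodes (medians 0.01 and 0.04). Further matrix genes had as highest and lowest Mmrn2 at 0.04 and Fbln5 at −0.50 in endothelial barcodes, and Postn at 0.68 and Efemp2 at −0.31 in mural barcodes (medians −0.13 and −0.03). For receptors the highest and lowest were Itga5 at 0.24 and Itgb5 at −0.31 in endothelial barcodes, and Cd44 at 0.46 and Itga7 at −0.34 in mural barcodes (medians −0.10 and −0.12). Among proteases and their inhibitors the highest and lowest were Adamts9 at 0.08 and Plat at −0.59 in endothelial barcodes, and Mmp15 at 0.23 and Plat at −0.39 in mural barcodes (medians −0.06 and −0.04). Genes of TGF-beta signalling had as highest and lowest Tgfb2 at 0.18 and Bambi at −0.66 in endothelial barcodes, and Tgfb2 at 0.43 and Bambi at −0.57 in mural barcodes (medians 0.09 and 0.02). In beta barcodes 8 genes of these lists reached 20 CPM and 0 passed 1.5-fold, with P4hb, a subunit of prolyl 4-hydroxylase, at 193 and 244 CPM (log2 ratio 0.33), Igfbp7 at 70.4 and 70.3 CPM (ratio 0.999 (0.969 to 1.03)) and Bambi at 78.6 and 57.3 CPM (log2 ratio −0.45).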
